A study of Mus musculus with 6 samples.

Results

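Transcripts of apolipoproteins and of Mttp, whose product loads lipid onto apolipoprotein B, were examined in mouse liver by sequencing of messenger RNA. The set comprised the 10 genes Apoa1, Apoa2, Apoa4, Apoa5, Apob, Apoc1, Apoc2, Apoc3, Apoe and Mttp, taken by gene name from the 30889 genes of the deposited table, where each name had 1 row. In the extract group, 3 liver libraries came from mice given a water extract of Emilia sonchifolia, a herb of the daisy family. In the control group, 3 libraries came from mice given phosphate buffered saline. Both groups were treated orally for 14 days, and strain, sex and age were not stated in the labels. The labels do not state that each library is a separate animal, and p-values then cover only library spread, possibly technical.

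The liver exports triglyceride and cholesterol in very low density lipoprotein. Microsomal triglyceride transfer protein, the product of Mttp, lipidates apolipoprotein B in the endoplasmic reticulum, and each particle keeps its apolipoprotein B molecule until it is cleared. The smaller apolipoproteins move between particles. Apolipoproteins A1 and A2 are the main proteins of high density lipoprotein, and apolipoprotein E binds clearance receptors. Apolipoproteins C2, C3 and A5 adjust the hydrolysis of triglyceride by lipoprotein lipase.

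The libraries held 51219533 to 61432016 estimated counts. The summed level of 12 macrophage and Kupffer cell markers was 309 to 319 FPKM (a level scaled to transcript length and library depth) in the extract libraries and 498 to 529.5 FPKM in the control libraries, 12 of the 12 were lower with the extract in the edgeR test, and none was at 0. Red cell markers summed to 198 to 236 FPKM with the extract and to 1272 to 1617 FPKM in control. Pancreatic markers stood at 79.1, 83.5 and 90.1 FPKM in extract libraries and at 5.94, 6.61 and 77.1 FPKM in control libraries 1, 2 and 3. Of 9 hepatocyte markers, 3 were called higher (Ahsg, Fgb and Cps1, with log2 fold changes of 0.33, 0.19 and 0.20), 2 were called lower (Apoh and Ttr, at -0.16 and -0.19) and 4 did not pass, and their summed level overlapped between the groups, at 45737 to 46736 FPKM with the extract and 45622 to 52998 FPKM in control. The most abundant of them, albumin (Alb), was at 26017 ± 163 FPKM with the extract and 29909.9 ± 4101 FPKM in control (SD, n = 3 each, edgeR adjusted p = 0.275).

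With the extract, transcripts of the particle-building pair Apob and Mttp rose, as did Apoa4 and Apoa5, while those of the abundant surface apolipoproteins Apoa1, Apoa2 and Apoe, and of Apoc2 and Apoc3, fell. edgeR called 9 of the 10 genes at an adjusted p under 0.05, 4 higher and 5 lower, where 26.9% of all 18071 genes tested were called, 14.2% higher and 12.8% lower. Without extract 1 the calls numbered 4, of which 1 was lower, and with a bound of 1.2 on the fold change they numbered 3. Calls were more frequent among abundant genes, at 55.7% of the 1570 genes with a mean of at least 20 FPKM, a level that all 10 members reached. For 10 of the 10 genes, no extract value overlapped a control value in FPKM, against 44.6% of all genes tested. That share was not taken for the abundant genes alone, and Apoc1, though without overlap in FPKM, was not called. The separation of Apoc1 depended on the scaling, since on TMM-scaled counts, which edgeR uses, extract 1 lay above control 1. The median absolute log2 fold change of the 10 genes was 0.31, against 0.27 for all genes tested, 0.21 for all genes with at least 20 FPKM and 0.33 for the called genes among these. Of the 10, only Apoa5, at 1.73-fold, and the Apoc2 row changed by more than 0.5 on the log2 scale. The Apoc2 row shares its coding bases with a second gene model, described below. With the counts of both summed, the log2 fold change was -0.496.

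**Figure D1:**
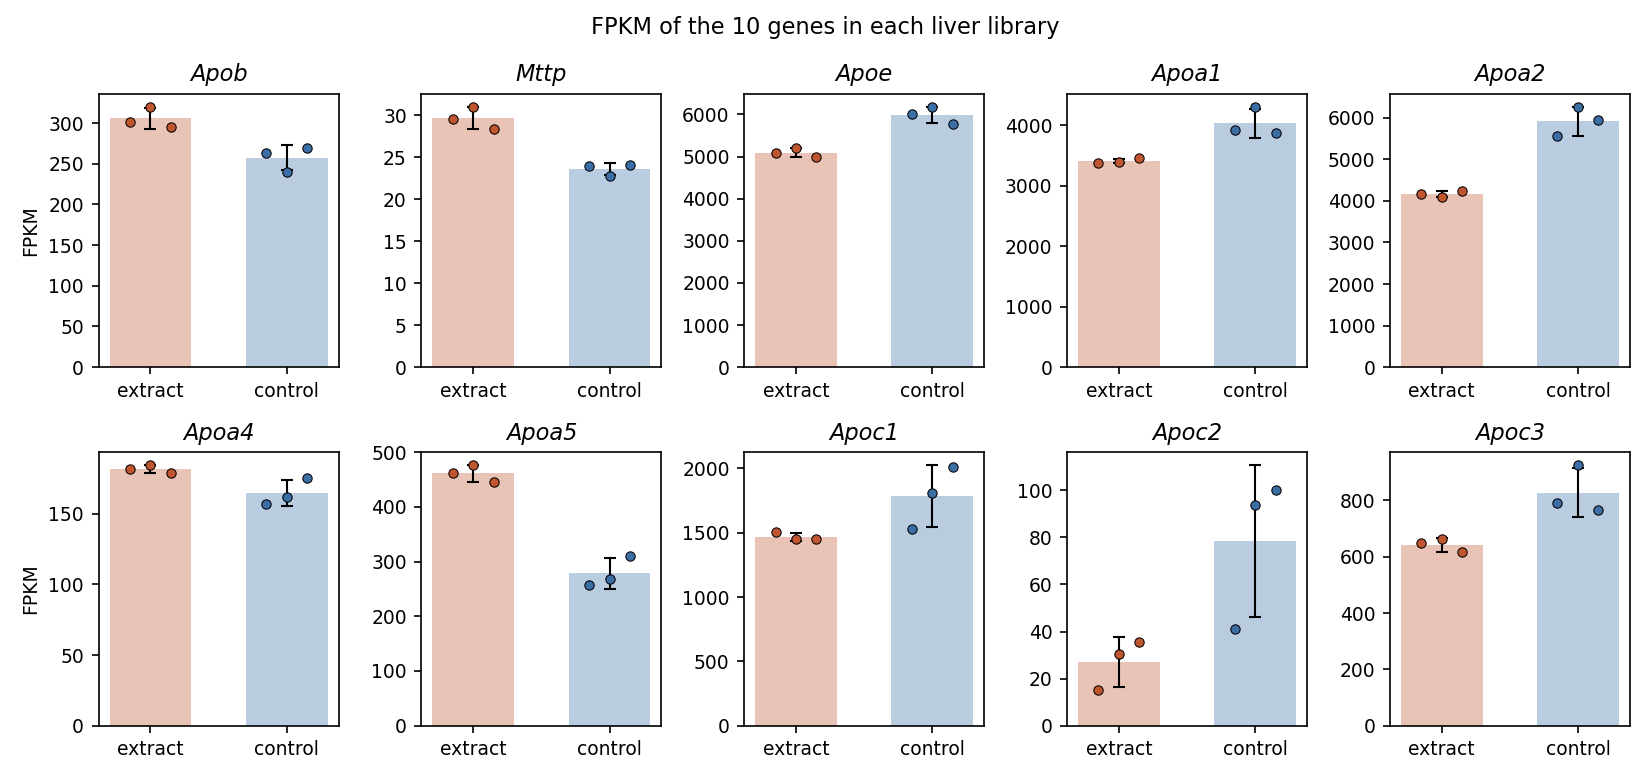
FPKM of each of the 10 genes (vertical axis, linear, from 0), with extract libraries at the left and control libraries at the right of each panel; points are libraries, bars are means and error bars are SDs (n = 3 each). The extract points lie above the control points for Apob, Mttp, Apoa4 and Apoa5 and below them for the other genes, and the control libraries of Apoc1 and Apoc2 are the most spread.

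Levels per length ran over more than 2 orders of magnitude. By mean FPKM over the 6 libraries, Apoe ranked 4, Apoa2 ranked 5 and Apoa1 ranked 8 among all genes. They were followed by Apoc1 (rank 39), Apoc3 (66), Apoa5 (112), Apob (139), Apoa4 (233), Apoc2 (701) and Mttp (1237). The rank of Apoc2 is that of its own row, without the second gene model. Apoe and Apoa2 did not differ beyond their spread in control, at 5774 to 6174 and 5558 to 6259.5 FPKM, nor did Apoa5 and Apob, at 257 to 311 and 240.5 to 269 FPKM. In the extract libraries both pairs were apart, since Apoa2 was at 4174 ± 69.7 FPKM against 5094 ± 116 FPKM for Apoe, and Apoa5 at 462 ± 15.1 FPKM against 306 ± 12.9 FPKM for Apob (SD, n = 3 each). Together the 10 genes made up 3.03%, 3.05% and 3.04% of all counts in the extract libraries and 3.27%, 3.44% and 3.37% in the control libraries. Their summed FPKM was 15787, 15868 and 15728 with the extract and 18559, 20272 and 19237 in control. The groups did not overlap on either scale (exact permutation test, two-sided, p = 0.1, the smallest p that 3 against 3 libraries allow). The size of the fall depended on the measure, with a log2 difference of -0.29 in summed FPKM and -0.10 on TMM-scaled counts. These measures differ in the weight given to long transcripts such as Apob as well as in library scaling.

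Apob (ENSMUSG00000020609, GRCm38 chromosome 12, gene span 7977648 to 8016835) encodes the structural protein of very low density lipoprotein. It was at 301, 320.3 and 296 FPKM in extract libraries and at 263, 240.5 and 269 FPKM in the control libraries. Every extract library was above every control library, by 0.31 ± 0.06 on the log2 scale in the edgeR fit (SE, adjusted p = 0.00486). Mttp (ENSMUSG00000028158, GRCm38 chromosome 3, gene span 138089854 to 138143388) stood at 29.6, 31.0 and 28.3 FPKM with the extract and at 23.95, 22.8 and 24.1 FPKM in control. It rose 1.31-fold in the edgeR fit (log2 fold change 0.39 ± 0.05, SE, adjusted p = 0.000717), again without overlap. P4hb, protein disulfide isomerase, the partner subunit of the transfer protein, was at 318 ± 5.30 FPKM with the extract and 350.5 ± 8.43 FPKM in control, and was not called (log2 fold change -0.08, 95% interval -0.17 to 0.01, edgeR adjusted p = 0.167). P4hb was lower in each of 18 alternative settings and called lower in 5 of them. The log2 ratio of Mttp to P4hb in the same library was -3.43 ± 0.05 with the extract and -3.89 ± 0.05 in control (SD, n = 3 each), a difference of 0.47 without overlap (exact permutation test, p = 0.1, adjusted p = 0.117 over 7 ratios). Apob rose slightly less than Mttp. The log2 ratio of Apob to Mttp differed by -0.08 without overlap (exact permutation test, p = 0.1, adjusted p = 0.117 over 7 ratios). Its extract values were 3.35, 3.37 and 3.38 and its control values 3.46, 3.40 and 3.48.

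Because Apob and Mttp rose together, the bases before their start sites are shown (RefSeq, GRCm38.p6, only bases upstream of both the RefSeq start and the deposited gene start, read 5′ to 3′ on the gene's strand). Capitals mark matches on either strand to TATAAA, the TATA box, or to TGACGT, part of the cyclic AMP response element.
Apob, chr12:7977427-7977647, plus strand: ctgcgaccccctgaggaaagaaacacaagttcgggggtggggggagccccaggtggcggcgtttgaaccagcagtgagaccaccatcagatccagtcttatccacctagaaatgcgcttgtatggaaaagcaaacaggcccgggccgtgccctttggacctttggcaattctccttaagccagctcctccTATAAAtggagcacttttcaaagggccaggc
Mttp, chr3:138143419-138143668, minus strand: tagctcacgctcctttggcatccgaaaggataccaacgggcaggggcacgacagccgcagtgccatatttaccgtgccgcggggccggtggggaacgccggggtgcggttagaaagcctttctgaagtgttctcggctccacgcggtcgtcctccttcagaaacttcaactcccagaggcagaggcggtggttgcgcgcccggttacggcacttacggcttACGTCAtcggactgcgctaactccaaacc
The motifs, 6 in all, were chosen after the values were seen, and the windows shared none of them. For each gene the most upstream RefSeq start near the deposited gene start was used. The start in use in these livers was not tested. Counted from the RefSeq start, TATAAA began 60 bases before that of Apob, which lies 29 bases inside the deposited gene span. TATAAA is found in 12.4% of 32851 mouse promoter windows of 250 bases. The match in Mttp, on the opposite strand, began 29 bases before its start, and TGACGT is found in 6.47% of windows.

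Apolipoproteins of high density lipoprotein fell by different amounts. Apoa2 (ENSMUSG00000005681, GRCm38 chromosome 1, gene span 171225054 to 171226379) was at 4176, 4104 and 4243 FPKM in extract libraries and at 5558, 6259.5 and 5938 FPKM in the control libraries. The groups were far apart for their spread, and Apoa2 fell by 26.4% (log2 fold change -0.44 ± 0.05, SE, edgeR adjusted p = 0.000433). Apoa1 (ENSMUSG00000032083, GRCm38 chromosome 9, gene span 46228580 to 46230466), whose product activates the cholesterol-esterifying enzyme of plasma, was at 3381, 3399 and 3454 FPKM with the extract and at 3924, 4314 and 3869 FPKM in control. It fell by 11.8% (log2 fold change -0.18 ± 0.04, SE, edgeR adjusted p = 0.0196). That call was lost without control 2 (edgeR adjusted p = 0.0553), extract 1 (0.127) or extract 2 (0.0926). Apoa2 was called without each library in turn.

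The fall in Apoa2 changed the make-up of the family. Of the summed FPKM of the 10 genes, Apoa2 held 26.4% ± 0.558 with the extract and 30.6% ± 0.533 in control, while Apoa1 held 21.6% ± 0.314 and 20.8% ± 0.639 (SD, n = 3 each). Apoe held 32.2% ± 0.588 with the extract and 31.0% ± 1.27 in control, with overlapping values. Shares of Apoa1, Apoa2, Apoa4, Apoa5, Apob and Mttp did not overlap between the groups (exact permutation test, two-sided, p = 0.1 each, adjusted p = 0.167 over 10 genes). The log2 ratio of Apoa1 to Apob, the main proteins of high density lipoprotein and of very low density lipoprotein, was 3.48 ± 0.07 with the extract and 3.97 ± 0.17 in control (SD, n = 3 each). This difference of -0.49 did not overlap either (exact permutation test, p = 0.1, adjusted p = 0.117 over 7 ratios).

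Apoe (ENSMUSG00000002985, GRCm38 chromosome 7, gene span 19696109 to 19699188) was the most abundant of the 10 transcripts, at 5091, 5211 and 4979.5 FPKM in extract libraries and at 6013, 6174 and 5774 FPKM in the control libraries. It fell by 11.2% (log2 fold change -0.17 ± 0.04, SE, edgeR adjusted p = 0.00922), and the call was lost without extract 1 (edgeR adjusted p = 0.0861). Apoc1 (ENSMUSG00000040564, GRCm38 chromosome 7, gene span 19689481 to 19692660), known to hinder receptor uptake of remnants, stood at 1502, 1448 and 1451 FPKM with the extract and at 1530.5, 1813 and 2011 FPKM in control. In FPKM its extract libraries lay close together just under control 1, which did not hold on TMM-scaled counts. Apoc1 was the 1 gene not called (log2 fold change -0.22, 95% interval -0.43 to -0.02, edgeR adjusted p = 0.105). It was called without control 1 (log2 fold change -0.32, edgeR adjusted p = 0.00712) and with DESeq2 (adjusted p = 0.0174). Macrophages also make Apoe and Apoc1, and the macrophage and Kupffer markers were lower in the same libraries, as given above, with Clec4f at 42.0 ± 2.77 FPKM in extract and 67.2 ± 3.08 FPKM in control (SD, n = 3 each). Fewer cells of a type and less RNA per cell cannot be told apart in these bulk samples, and the part of macrophages in the Apoe and Apoc1 values was not tested.

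Genes that act on lipoprotein lipase changed in both directions. Apoa5 (ENSMUSG00000032079, GRCm38 chromosome 9, gene span 46268633 to 46271919), which promotes triglyceride hydrolysis, was at 462, 477 and 446 FPKM with the extract and at 257, 268 and 311 FPKM in control. It had the largest rise of the 10 genes, by 0.79 ± 0.07 on the log2 scale (SE, 95% interval 0.62 to 0.95, edgeR adjusted p = 0.000204). Apoc3 (ENSMUSG00000032081, GRCm38 chromosome 9, gene span 46232933 to 46235636), an inhibitor of the lipase, was at 647, 664 and 616 FPKM with the extract and at 790.5, 926 and 766 FPKM in control. It fell by 19.0% (log2 fold change -0.30 ± 0.06, SE, edgeR adjusted p = 0.00991), a call lost without extract 1 (edgeR adjusted p = 0.0571). On a linear scale there were 1.39 Apoc3 transcripts per Apoa5 transcript with the extract and 2.97 in control, by FPKM. The log2 ratio was 0.48 ± 0.01 with the extract and 1.57 ± 0.25 in control (SD, n = 3 each), with no overlap (exact permutation test, p = 0.1, adjusted p = 0.117 over 7 ratios).

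**Figure D2:**
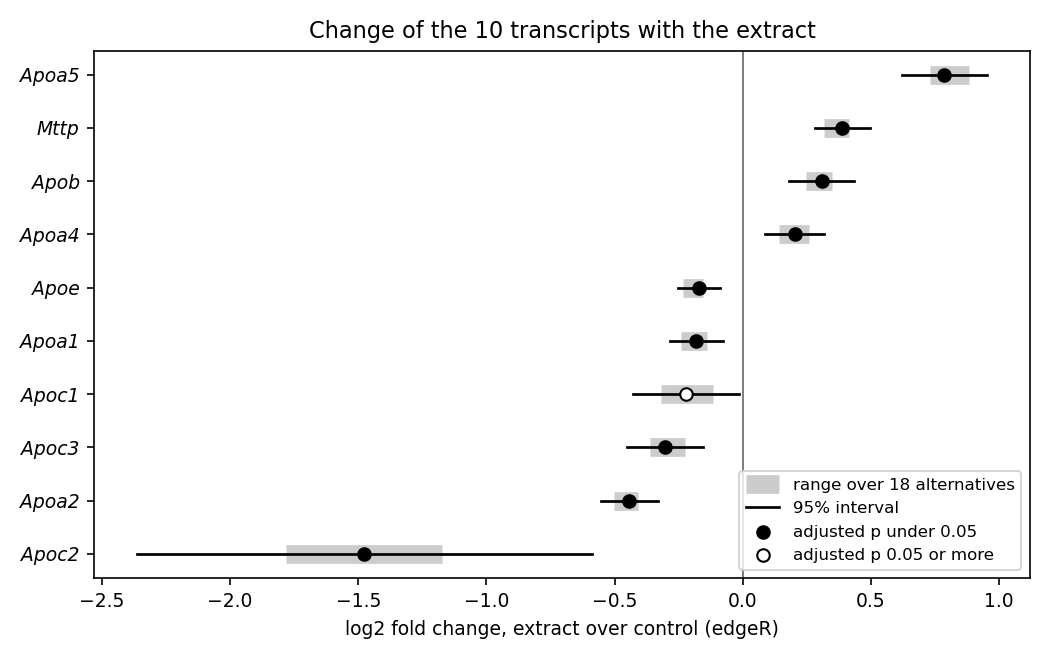
Log2 fold change of each gene, extract over control, from edgeR (horizontal axis), with 95% intervals as black lines and the range over 18 other settings as grey bars; filled points had an adjusted p under 0.05. Apoa5 at 0.79 and the Apoc2 row, taken alone, at -1.48 stand apart from the others, and no grey bar crosses 0.

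Apoa4 (ENSMUSG00000032080, GRCm38 chromosome 9, gene span 46240696 to 46243459), an apolipoprotein of the intestine and, in rodents, of the liver, was at 182, 184 and 179 FPKM with the extract and at 157, 162 and 175 FPKM in control. Control 3 came close to the extract libraries. The rise was 1.15-fold (log2 fold change 0.20 ± 0.05, SE, edgeR adjusted p = 0.0191) and was called in 8 of 18 alternatives, among them DESeq2 (adjusted p = 0.000530) and the leaving out of control 1 or control 3. The call was lost without control 2 (edgeR adjusted p = 0.0777), extract 1 (0.0569), extract 2 (0.0697) or extract 3 (0.0589). It was also lost with total counts in place of TMM factors (edgeR adjusted p = 0.0580) and with limma on log2(FPKM + 0.5) (adjusted p = 0.0610). Relative to Apoa1, its log2 ratio rose by 0.38 (-4.23 ± 0.04 with the extract, -4.62 ± 0.14 in control, SD, n = 3 each), a difference free of library scaling, at an exact permutation p of 0.1. The small intestine also expresses genes of this set, Apoa4, Apob and Mttp among them, and not only those that rose. Its 12 markers summed to 45.3 to 73.6 FPKM with the extract and to 76.1 to 94.5 FPKM in control. Of these, 2 were called lower and 0 higher, and their median log2 fold change was -0.77. The part of intestinal RNA in the Apoa4 values was not tested.

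Apoa1, Apoc3, Apoa4 and Apoa5 lie within 43.3 kb of chromosome 9, and each was called, the first pair lower and the second pair higher. The divergence falls within the cluster, since Apoc3 and Apoa4 are 5.06 kb apart, and Apoa5 lies 25.2 kb beyond Apoa4. Antisense gene models overlap Apoa4 and Apoa5, and were at no more than 0.642 FPKM in any library. Since Apoa5 had the largest rise of the 10 genes, the bases before its start are shown, with matches to TATAAA, to CACGTG (the E-box) and to GGGTCA (a nuclear receptor half-site) in capitals (RefSeq, GRCm38.p6).
Apoa5, chr9:46268358-46268607, plus strand: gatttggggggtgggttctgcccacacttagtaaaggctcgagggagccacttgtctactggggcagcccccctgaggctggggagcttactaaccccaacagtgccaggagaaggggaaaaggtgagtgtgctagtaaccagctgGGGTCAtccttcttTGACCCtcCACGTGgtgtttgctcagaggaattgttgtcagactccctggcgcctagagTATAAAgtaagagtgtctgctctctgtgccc
The GGGTCA matches, 1 on each strand, began 104 and 90 bases before the start, the E-box 82 bases and the TATA box 31 bases before it. CACGTG is found in 6.02% and GGGTCA in 11.6% of promoter windows. Promoter sequence was at hand for 8 of the 10 genes. TATAAA was in the windows of Apoa2, Apoa5 and Apob, though in Apoa2 it began as far as 212 bases before the start. CACGTG was in the window of Apoa5 alone, and GGGTCA in those of Apoa5 and Apoe. CAAAGTCCA, a site of the hepatocyte factor HNF4A found in 0.384% of windows, was in 0 of 8. Both strands were searched, and the windows of Apoa1, Apoa4 and Apob were shorter, at 200, 102 and 221 bases.

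**Figure D3:**
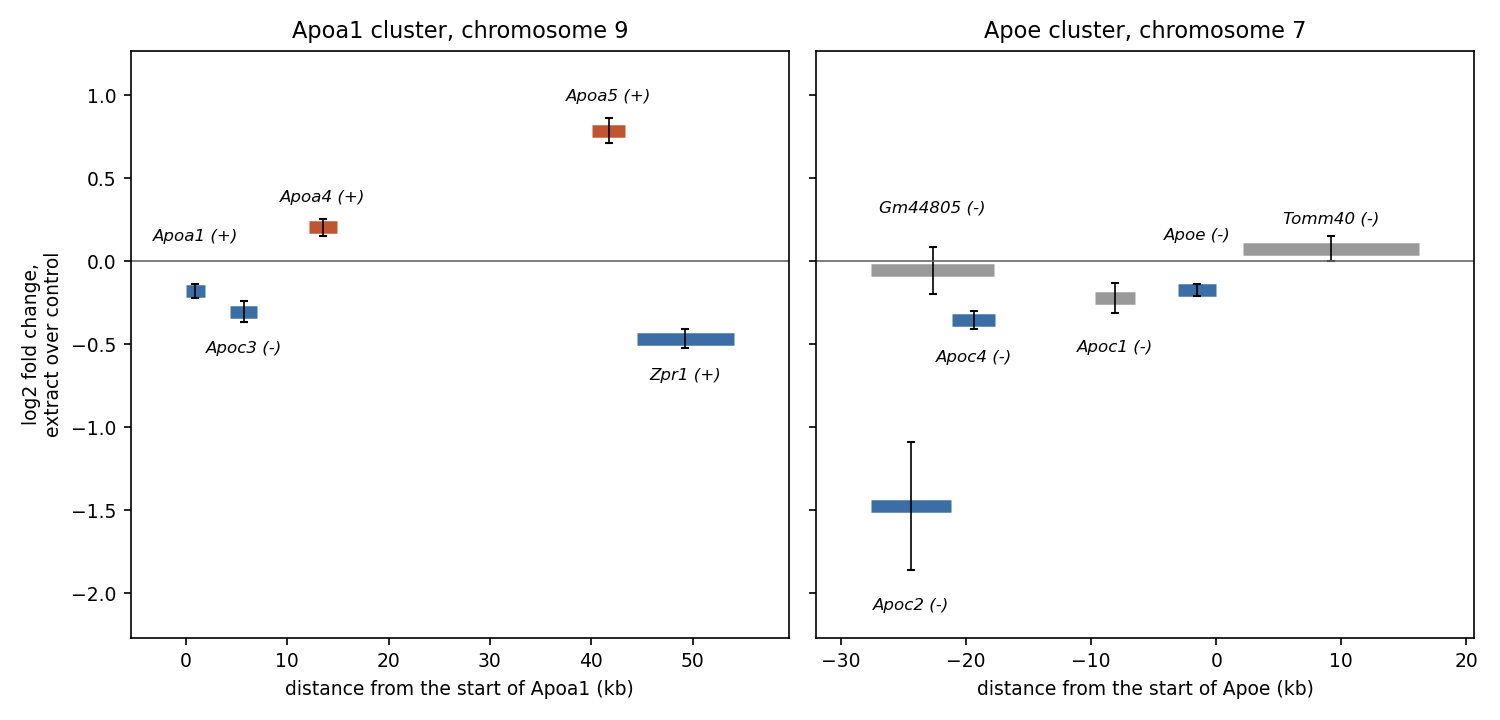
Log2 fold change, extract over control (vertical axis), of the genes in the Apoa1 cluster and the Apoe cluster, drawn at their distance in kb from the start of Apoa1 or Apoe; coloured bars are gene spans (orange called higher, blue called lower, grey not called), error bars are SEs and the strand is in brackets. Apoa4 and Apoa5 lie above 0 between the lower Apoc3 and Zpr1, and the called genes drawn for the Apoe cluster, Apoc2, Apoc4 and Apoe, lie below 0, while Nectin2, beyond Tomm40 and not drawn, was called higher (log2 fold change 0.44).

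Apoc2, Apoc4, Apoc1 and Apoe form a cluster of 27.6 kb on chromosome 7. Apoc2 (ENSMUSG00000002992, GRCm38 chromosome 7, gene span 19671579 to 19677941) encodes the activator that lipoprotein lipase requires. It had the largest fold change and the widest error of the 10 genes. It was at 15.1, 30.4 and 35.3 FPKM in extract libraries and at 41.1, 93.9 and 100.03 FPKM in the control libraries. Library 1 was the lowest of each group, and control 1 was nearer to the extract libraries than to the other controls. In the edgeR fit its log2 fold change stood at -1.48 ± 0.39 (SE, 95% interval -2.36 to -0.59, adjusted p = 0.0246), and the call was lost without control 2 (edgeR adjusted p = 0.0954), control 3 (0.0629), extract 1 (0.0712) or extract 2 (0.0778).

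The Apoc2 value depends on a second gene model at the same place. Gm44805 (ENSMUSG00000109350, GRCm38 chromosome 7, gene span 19671584 to 19681423) joins exons of Apoc4 and Apoc2 on the same strand. In GENCODE M21 its 291 coding bases are the same 291 coding bases as those of Apoc2, and it shares 79.5% of the exonic bases of Apoc2 and 4.69% of those of Apoc4. Gm44805 was at 115, 104 and 99.6 FPKM with the extract and at 142, 93.4 and 109 FPKM in control, with overlapping groups (log2 fold change -0.06, 95% interval -0.38 to 0.27, edgeR adjusted p = 0.809). It was highest where Apoc2 was lowest, in library 1 of each group. Of the FPKM of both models, Apoc2 held 11.6%, 22.7% and 26.2% in the extract libraries and 22.4%, 50.1% and 47.9% in the control libraries, which overlap.

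Added up, the models of the Apoc2 coding sequence were at 130.0, 134 and 135 FPKM with the extract and at 183, 187 and 209 FPKM in control. The sum was even within each group and did not overlap between them. With the counts of Apoc2 and Gm44805 summed before the edgeR fit, a setting chosen after seeing the data, the sum fell by 29.1% (log2 fold change -0.50 ± 0.06, SE, 95% interval -0.64 to -0.35, edgeR adjusted p = 0.000991). The direction was that of Apoc2 alone, and the size smaller, at -0.50 against -1.48 on the log2 scale. No label or header says how the deposited counts divide reads between overlapping models, so the Apoc2 row is uncertain and the summed value is the steadier of the pair. Apoc4, the neighbour that ends 141 bases from Apoc2 and is also carried on triglyceride-rich particles, was at 99.5, 99.6 and 97.9 FPKM with the extract and at 121, 141 and 135 FPKM in control, and fell by 21.8% (edgeR adjusted p = 0.00262). The log2 ratio of Apoc3 to Apoc2, 4.67 ± 0.68 with the extract and 3.50 ± 0.69 in control (SD, n = 3 each), overlapped (exact permutation test, p = 0.2).

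**Figure D4:**
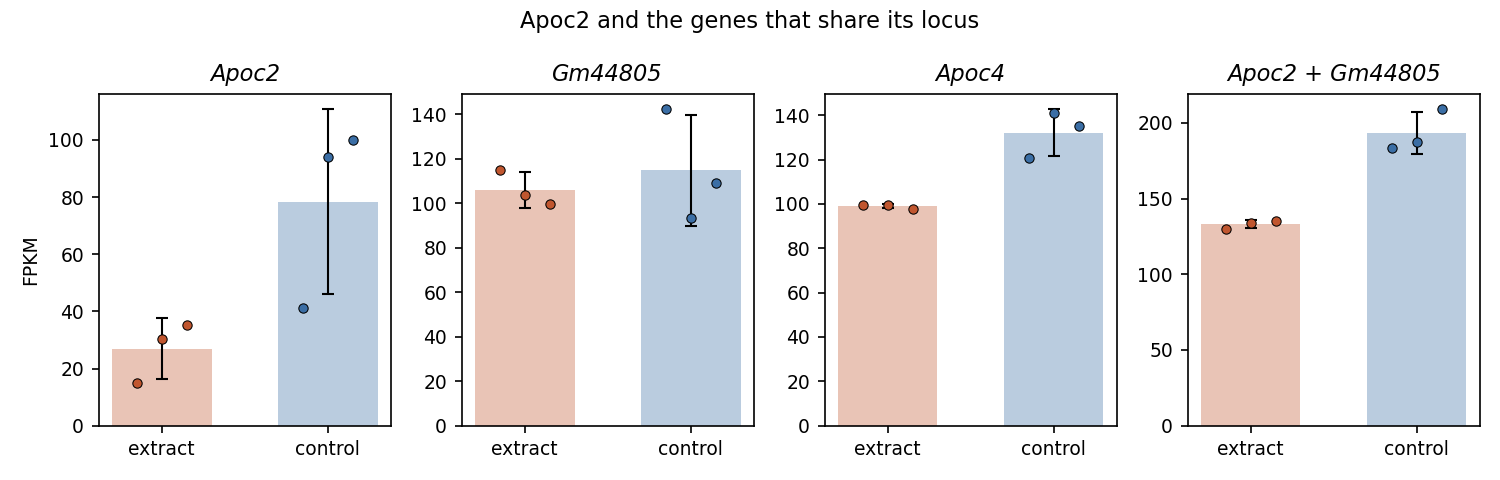
FPKM of Apoc2, of the joined model Gm44805, of Apoc4 and of the sum of Apoc2 and Gm44805 (vertical axes, linear, from 0), extract at the left and control at the right; points are libraries 1 to 3 from left to right, bars are means and error bars are SDs (n = 3 each). The spread of Apoc2 is larger than that of the sum, where the extract libraries lie at 130.0 to 135 and the control libraries at 183 to 209.

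The bases before the Apoc2 start are shown since its row, uncertain as given above, fell most. The match to AGGTCA, a nuclear receptor half-site found in 14.0% of promoter windows, is in capitals (RefSeq, GRCm38.p6). The match began 115 bases before the start. The far part of the window, from base 19678083, lies within the span of Apoc4, and Gm44805 spans the whole window.
Apoc2, chr7:19677942-19678191, minus strand: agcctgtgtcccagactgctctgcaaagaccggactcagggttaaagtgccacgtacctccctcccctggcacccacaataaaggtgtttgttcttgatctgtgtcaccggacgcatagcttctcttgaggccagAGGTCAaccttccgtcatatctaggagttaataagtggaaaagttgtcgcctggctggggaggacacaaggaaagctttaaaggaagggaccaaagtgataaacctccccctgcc

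Genes around the assembly of lipoproteins were read from the same fit in 4 lists. Of 32 genes of assembly and secretion, 19 rose, 4 fell and 9 did not pass, with a median log2 fold change of 0.22 against -0.02 over all genes tested. The share called was 71.9%, beside 26.9% of all genes tested and 55.7% of those with at least 20 FPKM. The genes that rose included the carboxylesterase Ces1d, a triglyceride hydrolase that supplies lipid for secretion, at 349 ± 14.2 FPKM with the extract and 183 ± 13.4 FPKM in control (SD, n = 3 each, edgeR adjusted p = 1.98e-05). Its relative Ces1g rose 2.17-fold, and near-identical copies in this family can share reads. Fitm2, a protein of lipid droplet budding, rose 1.70-fold, and Abca1, which loads lipid onto apolipoprotein A1, rose 1.61-fold. The cargo receptor gene Mia3, whose product helps export large particles, rose 1.29-fold. Pla2g12b, needed in mice for normal lipoprotein secretion, fell by 25.5% and Dgat1, a triglyceride synthase of the endoplasmic reticulum, fell by 24.5%. Cideb, a lipid droplet protein that acts in particle lipidation, fell by 9.41%, and Arfrp1, a small GTPase of the Golgi, fell by 18.2%. Without single libraries the edgeR adjusted p went up to 0.132 for Cideb, whose call held only without control 1 or control 3, and to 0.111 for Arfrp1, whose call held only without control 3.

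**Figure D5:**
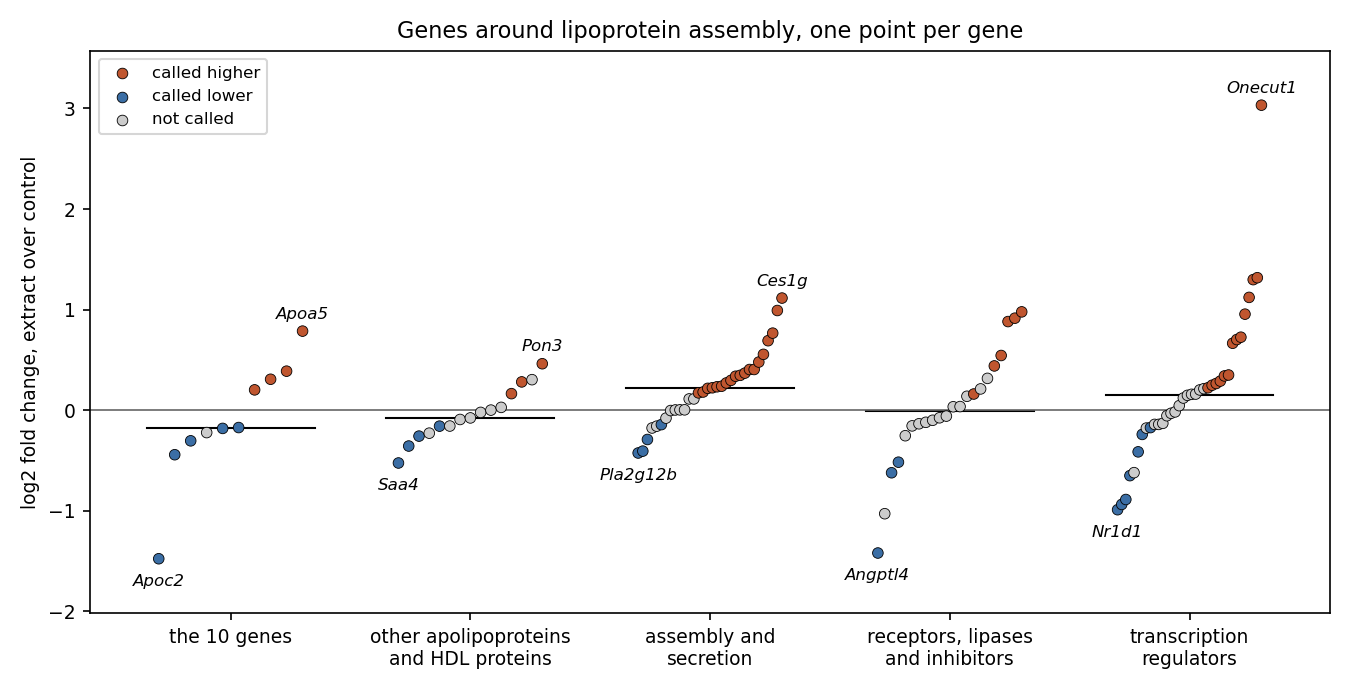
Log2 fold change, extract over control (vertical axis), of the 10 genes and of the 4 lists, 1 point per gene in rising order within a list (orange called higher, blue called lower, grey not called), with the list median as a line. The assembly list has its median at 0.22 and most points above 0, and the other lists have points on both sides.

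Of 15 other apolipoproteins and proteins of high density lipoprotein, 3 rose, 4 fell and 8 did not pass, with a median of -0.08. The 46.7% called lies between the 26.9% of all genes and the 55.7% of abundant genes, though 1 of the 15 was under 1 FPKM in all libraries. Apof, a lipid transfer inhibitor, was at 338 ± 3.26 FPKM with the extract and 290.2 ± 6.07 FPKM in control (SD, n = 3 each, edgeR adjusted p = 0.00110). Pon3, a lactonase of high density lipoprotein, rose 1.38-fold and Apon 1.12-fold. Saa4, constitutive serum amyloid A, fell by 30.5%. Apoh, which binds phospholipid, fell by 10.4%, a call lost without any 1 extract library (edgeR adjusted p up to 0.0844). Pltp, the phospholipid transfer protein, fell by 16.3%, a call that held only without extract 3 (edgeR adjusted p otherwise up to 0.141). Lcat, which esterifies the cholesterol of high density lipoprotein, was at 305 ± 9.29 FPKM with the extract and 323 ± 10.7 FPKM in control and was not called (log2 fold change -0.02, 95% interval -0.12 to 0.08, edgeR adjusted p = 0.752).

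Among 22 receptors, lipases and their inhibitors, 6 rose, 3 fell and 13 did not pass, with a median of -0.01. The share called was 40.9%, beside the same 26.9% and 55.7%. Of the 22, 5 were under 1 FPKM in all libraries, so the abundant genes are not a like set. Vldlr, a lipoprotein receptor, rose 1.89-fold and the fatty acid carrier gene Cd36 rose 1.36-fold. Mylip, a ubiquitin ligase gene, fell by 34.99%. Angptl4, an inhibitor of lipoprotein lipase, was at 12.03 ± 0.411 FPKM with the extract and 33.6 ± 1.01 FPKM in control (SD, n = 3 each) and fell by 62.6% (edgeR adjusted p = 3.26e-06). Lipg, endothelial lipase, fell by 30.1%, a call that held only without control 3 (edgeR adjusted p otherwise up to 0.153). Sinusoidal endothelial markers summed to 42.4 to 44.4 FPKM with the extract and 54.3 to 61.5 FPKM in control, with 5 of 8 called lower and 0 higher, and their part in the Lipg value was not tested. Lipc, hepatic lipase, and Scarb1, a receptor for high density lipoprotein, were not called, with log2 fold changes of -0.07 and 0.04.

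Of 36 transcription regulators that act on hepatic apolipoprotein or lipid genes, 14 rose, 7 fell and 15 did not pass, with a median of 0.15. The 58.3% called is above the 26.9% of all genes. It is close to the 55.7% of abundant genes, but not all of the 36 reached that level. Srebf1, which drives fatty acid synthesis, was at 59.1 ± 3.28 FPKM with the extract and 25.1 ± 0.910 FPKM in control (SD, n = 3 each, edgeR adjusted p = 4.18e-06), and the hepatocyte factor genes Foxa2 and Prox1 rose 2.49-fold and 1.94-fold. The highest point of this list was Onecut1, a hepatocyte factor gene at 9.05 ± 2.59 FPKM with the extract and 1.15 ± 0.373 FPKM in control (SD, n = 3 each, edgeR adjusted p = 0.000260). Hnf4a, a hepatocyte factor known to act on many apolipoprotein promoters, rose 1.17-fold. Nr0b2, the small heterodimer partner, fell by 47.7%, and Nr1d1, the REV-ERB alpha repressor known to act on Apoc3, fell by 49.6%. The coactivator gene Ppargc1a fell by 45.9% and Foxo1, known to promote Mttp and Apoc3 transcription, fell by 24.9%. Creb3l3, known in mice to promote Apoa4, Apoa5 and Apoc2, was at 73.1 ± 3.90 FPKM with the extract and 77.1 ± 1.91 FPKM in control (SD, n = 3 each) and was not called (log2 fold change -0.02, 95% interval -0.12 to 0.09, edgeR adjusted p = 0.828).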

How the data were processed

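Per the labels' protocols, libraries were made from total RNA with oligo(dT) beads. StringTie 1.3.4d, HISAT2 2.0.4, cutadapt 1.9 and edgeR are listed, without roles, per the submitters' processing notes. The deposited table gives, per the file headers, estimated counts, which are whole numbers, and FPKM as scaled by the authors; neither strandedness nor a genome build is stated there or in the labels. Of its gene identifiers, 99.7% are in GENCODE M21 on GRCm38, and 9 of the 10 member spans are identical there (not Mttp). Another 6 columns of per-sample values match no sample and were not used. Low counts peak at 4 (6292 entries, against 4117 at 3 and 2133 at 5), so a few counts may stand for 1 read pair.

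The count test was the quasi-likelihood test of edgeR 4.0.16, run in R 4.3.3 (filterByExpr, TMM, two-sided, Benjamini-Hochberg over 18071 genes, threshold 0.05). The SE comes from the fold change and F statistic. Shares and ratios used exact permutation tests. limma 3.58.1 and DESeq2 1.42.0 served as alternatives, and the test steps were checked on simulated counts. The 10 genes and the lists were chosen with earlier results of these data known. All 10 genes are named; of each list, up to 4 genes per direction with the smallest p are given with values, and other called genes may be named; some list genes are not reported here. Hnf4a, Onecut1 and the list genes given as not called are outside that rule and were chosen after their values were seen. Samples were grouped by the treatment label. Sequences are from RefSeq (GRCm38.p6).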

Additional observations from a re-analysis of the deposited data

How the results depend on the processing

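All 10 genes kept their sign in each of 18 alternatives, and Apoa2, Apoa5 and Mttp were also called in each. The 60 called list genes kept their sign as well, and 36 were called in every alternative except, for some, the bound on the fold change. With a bound of 1.2-fold, 3 genes were called, 2 higher (Apoa5 and Mttp) and 1 lower (Apoa2), and 25 list genes, 19 higher and 6 lower, against 1916 of all genes. With limma on log2(FPKM + 0.5) without a filter, 5 genes were called, 2 of them lower, and 26 list genes were higher. Leaving out 1 library at a time gave 4 to 10 called genes, 3 to 4 higher and 1 to 6 lower; the lowest number, without extract 1, left Apoa2, Apoa5, Apob and Mttp. The called list genes then numbered 44 to 59, with 33 to 42 higher and 10 to 17 lower, and the lower list genes were 11 without extract 1 and 10 without extract 2, against 18. Over all genes, 4870 calls became 3237 without extract 2. Shares without overlap numbered 6 to 8 and ratios 6 to 7. The log2 difference of the summed level was -0.32 to -0.26 without 1 library, against -0.29. On TMM-scaled counts it was -0.10. There, long transcripts such as Apob weigh more, and the TMM factors were 0.979 to 0.986 in extract and 1.006 to 1.026 in control libraries. Of the calls over all genes 52.6% were higher, and 40.2% with limma on log2(FPKM + 0.5).

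Same-numbered libraries of the groups did not deviate together (r = -0.15, -0.02 and -0.10 across genes for numbers 1 to 3), so the numbers are not taken to pair the libraries. With the replicate number as a block, 8 of the 10 genes were called, with Apoa1 at an edgeR adjusted p of 0.0627, and 47 list genes, 36 higher and 11 lower. The Apoc2 row, lowest in library 1 of each group, was at an edgeR adjusted p of 0.000294 with the block and 0.0246 without it. The lowest count of any of the 10 genes was 789, for Apoc2 in extract 1.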

Other observations

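Genes beside the clusters were chosen after their values were seen. Zpr1, the next gene after Apoa5 on the same strand and a zinc finger protein gene, was at 11.7, 11.96 and 10.4 FPKM in extract libraries and at 16.1, 17.2 and 15.9 FPKM in the control libraries, and fell by 27.6% (edgeR adjusted p = 0.000920). Bud13, a splicing factor gene beyond it, fell by 30.2% (edgeR adjusted p = 0.0166). Sik3, a kinase gene on the other side of Apoa1, was at 3.80 ± 0.111 FPKM with the extract and 4.10 ± 0.117 FPKM in control (SD, n = 3 each, edgeR adjusted p = 0.520). Beyond Apoe, Tomm40 was not called (edgeR adjusted p = 0.514), and Nectin2, a cell adhesion gene, rose 1.36-fold (edgeR adjusted p = 0.00618), at 9.64 ± 0.797 FPKM with the extract and 7.40 ± 0.616 FPKM in control (SD, n = 3 each).

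Over the 6 libraries, the genes whose log2(CPM + 0.5) ran most like that of Apoa5, among 4871 genes with at least 5 FPKM, were Tfrc, the transferrin receptor, Nat8f2 and Arfgef2 (Pearson r = 0.999, 0.998 and 0.997). Those most like Apoa2 were Gas2, Mrpl51 and Psma4 (r = 0.999, 0.998 and 0.998), and those most like Mttp were Smarca4, Acsl1 and Akr1d1 (r = 0.998, 0.998 and 0.997). Acsl1 activates long-chain fatty acids, and Akr1d1 acts in bile acid synthesis. These values describe 6 points in 2 groups that lie apart, and any gene that differs evenly between the groups has a high r.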
